A study of Gallus gallus with 12 samples.

Results

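The solute carriers of the chicken dorsal mesentery were compared across its 4 compartments, the epithelium and the mesenchyme of the left and of the right side. A gene was counted as a solute carrier when its symbol in the platform annotation starts with SLC and a family number, and the mitochondrial SLC25 family (33 genes on the array) was left out. The rule found 252 of the 13008 chicken genes with a single symbol, covered by 591 probe sets, and each gene was followed through the probe set with the highest mean signal. The genes were picked by name, though the rule was set with earlier results of these data known, and the probe set of each by its mean signal. All embryos were White Leghorn at Hamburger-Hamilton stage 21, about day 3.5 of incubation, and no group was treated or carried a mutation. The dorsal mesentery is the sheet that hangs the gut tube from the body wall, with a mesenchymal core under a coelomic epithelium on each side. Frozen 8 µm sections (1939 over the whole study) were cut by laser, and material of an experiment was pooled to give 1 array per compartment in each of 3 biological experiments. The replicate number in the labels was taken to name the experiment, which they do not state. Each compartment therefore has n = 3 arrays, each array is a pool, and the number of embryos behind it is not given in the sources.

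Solute carriers are membrane proteins that move sugars, amino acids, nucleotides, vitamins, metals, organic ions and inorganic ions across the plasma membrane or the membranes of organelles, by facilitated diffusion or coupled to ion gradients. Some are known from particular cell types, such as the norepinephrine transporter of sympathetic neurons or the iron exporter of macrophages, while others, such as the nucleotide sugar carriers of the Golgi, serve secreting cells of many kinds. Several need a partner protein to reach the membrane or depend on the sodium gradient that the sodium pump maintains.

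The values are MAS5 signals, a linear intensity that the authors had scaled to a common mean on every array. Array medians lay between 84.2 and 98.6, and pairs of arrays correlated at 0.945 to 0.968. A floor was set on each array at the 95th percentile of 42 bacterial control probe sets (21.1 to 39.2 signal units). Above it were 132 of the 252 genes on all 12 arrays and 109 on some. On no array were 11 genes above it: SLC6A8, SLC6A17, SLC7A10, SLC7A13, SLC17A6, SLC22A13, SLC26A4, SLC28A2, SLC28A3, SLC35B1 and SLC38A4. For these only the bound holds, since a probe set that does not work also stays under the floor. The filter on the mean over all arrays let 146 genes be tested and left 106 untested. The summed signal of 17 coelomic epithelium genes (podocalyxin, keratin 7 and others) was 54038 to 65063 in epithelium and 37967 to 46944 in mesenchyme. Of the 13 tested 7 were higher and 1 was lower in epithelium. Single genes did not all follow the sum: TCF21 averaged 157 and 457 in left and right epithelium against 368 and 590 in left and right mesenchyme. UPK1B and MSLN were too dim to be tested. The summed signal of 21 mesenchyme markers was higher in mesenchyme than in epithelium of the same side, without overlap. It was 66401 to 68206 in left mesenchyme and 52756 to 58948 in left epithelium. On the right it was 77869 to 80409 in mesenchyme and 69097 to 71371 in epithelium, so right epithelium lay above left mesenchyme in this sum. Of the 19 tested 5 were lower in epithelium. FOXF1 stayed under the floor on all 12 arrays, while SNAI2 averaged 1965 and 2547 in left and right mesenchyme against 979 and 1251 in left and right epithelium. On the log2 scale the 3′ over 5′ signal of GAPDH was 0.17 higher on the left arrays (1.35 ± 0.14 against 1.18 ± 0.13, SD, n = 6 each). That of actin was 0.09 higher on the left arrays, within its spread (1.58 ± 0.23 against 1.49 ± 0.24).

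A small set of tested carriers differed between the compartments. In limma's test of any difference among the 4 compartments 10 of the 146 genes passed, 6.85%, where 7.34% of all 23063 probe sets tested passed. The threshold in all tests was a Benjamini-Hochberg adjusted p of 0.05 over those 23063. With SLC34A2, which passed in the epithelium alone, 11 genes passed at least 1 test. They belong to unlike families: the norepinephrine transporter SLC6A2, the iron exporter SLC40A1, the endosomal sodium-proton exchanger SLC9A9, the glutamate transporter SLC1A3, the nucleotide sugar carrier SLC35B4, the monocarboxylate carriers SLC16A1 and SLC16A12, the ascorbate carrier SLC23A2, the choline carrier relative SLC44A5, SLC45A4 and the phosphate carrier SLC34A2. In none of the 5 tests did a larger share of carriers than of all probe sets pass. Here and below these are unlike sets: each carrier counts with its brightest probe set, and the whole array with every probe set tested.

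**Figure D1:**
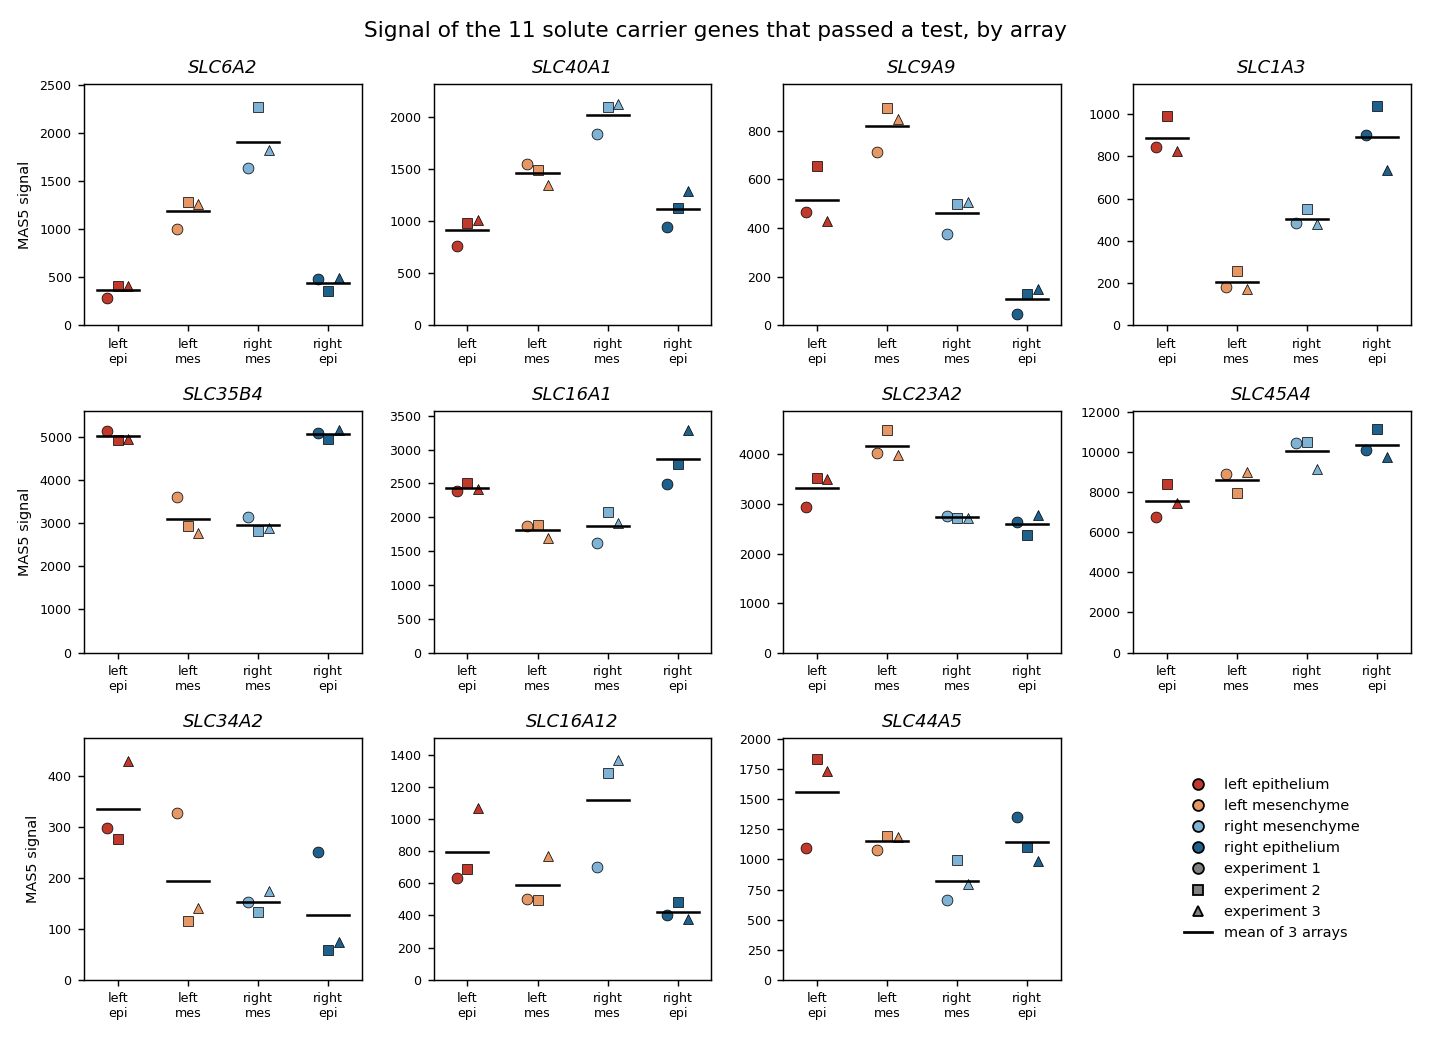
Signal on each array (vertical axis, MAS5 signal, linear, from 0) of the 11 solute carrier genes that passed a test. Points are arrays, shapes are experiments, colours are compartments and bars are means of 3 arrays; SLC6A2 and SLC40A1 sit higher in both mesenchymes, SLC35B4 and SLC16A1 higher in both epithelia, and SLC1A3 lowest in left mesenchyme.

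Epithelium and mesenchyme were compared to ask which carriers mark a layer. The epithelium carried more SLC1A3, SLC35B4 and SLC16A1, and the mesenchyme more SLC6A2, SLC40A1 and SLC9A9. These 6 genes are 4.11% of those tested, against 4.79% of all probe sets, with 3 higher and 3 lower in epithelium. For 5 of them, all but SLC9A9, the 6 epithelial arrays did not overlap the 6 mesenchymal ones. No other tested carrier had groups that did not overlap here, 3.42% against 1.98% of all probe sets. A difference between compartments can come from fewer cells of a type or from less RNA per cell, and in captured tissue these cannot be told apart.

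SLC6A2, which takes norepinephrine back up into neurons, had the largest layer difference of the 146 tested carriers. Its signal was 1009, 1285 and 1269.5 in experiments 1, 2 and 3 of left mesenchyme and 1636, 2276 and 1828 in right mesenchyme. It was 289, 407 and 407 in left epithelium and 479, 354 and 489.7 in right epithelium. Every mesenchymal array lay above every epithelial one, right mesenchyme lay above left in all 3 experiments without overlap, and the 2 epithelia overlapped. The epithelium was 3.65-fold lower, a log2 difference of -1.87 ± 0.14 (SE, adjusted p = 5.2e-07). The left-right difference within mesenchyme (-0.67 ± 0.20) did not pass (adjusted p = 0.12). It is covered by 1 probe set. Among markers of noradrenergic neurons, tyrosine hydroxylase (TH) followed another pattern, with mean signals of 20.4 in epithelium and 20.2 in mesenchyme on the left, and 168 and 109 on the right. It was above the floor on 1 of 3 arrays in each left compartment and on 3 of 3 in each right one, so no fold is given, and the left-right test passed in both layers (adjusted p = 0.016 in mesenchyme and 0.001 in epithelium). The left means of TH lay under the filter signal of 47.4, so it was tested only through its right values. These passes are therefore no separate support. The 11 markers of neural crest and neurons summed to 6305 to 7161 in left and 4975 to 5815 in right mesenchyme, against 3966 to 5003 in epithelium, and 2 of 7 tested fell in epithelium. Their part in the SLC6A2 difference was not tested. Dopamine beta-hydroxylase (DBH), which makes norepinephrine, stayed near the floor, with means of 34.2 in epithelium and 40.5 in mesenchyme on the left, and 35.8 and 32 on the right.

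SLC40A1, ferroportin, the exporter that carries iron out of cells and is known from macrophages, gut and yolk sac, showed the same order of compartments. Its signal was 1545, 1491 and 1352 in left mesenchyme and 1841, 2099.6 and 2121 in right mesenchyme. In left epithelium it was 758, 979.9 and 1008, and in right epithelium 946, 1123 and 1289. The layers did not overlap and right mesenchyme lay above left. The epithelium was 1.70-fold lower (-0.76 ± 0.11 log2, adjusted p = 3.8e-04), and the lower level in left than right mesenchyme (-0.46 ± 0.16) did not pass (adjusted p = 0.19). The summed signal of 11 macrophage markers was likewise higher in mesenchyme and highest in right mesenchyme: 4557 to 5055 in mesenchyme and 1148 to 1996 in epithelium on the right, and 2625 to 4042 and 965 to 1290 on the left. Of the 8 tested markers 6 fell in epithelium, CSF1R by 1.81 log2, and MARCO was under the floor on all arrays. Single markers did not all follow the sum: CYBB averaged 43.6 in left mesenchyme against 74.3 in left epithelium. Endothelial markers were also lower in epithelium, 13 of 19 tested, and their part and that of macrophage markers in SLC6A2 or SLC40A1 was not tested. Transferrin receptor (TFRC), the iron uptake side, averaged 2053 ± 240.3 in epithelium and 1853 ± 206 in mesenchyme on the left, and 2038 ± 245 and 1606 ± 421 on the right (SD, n = 3) and passed no test.

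SLC35B4 carries UDP-xylose and UDP-N-acetylglucosamine into the endoplasmic reticulum and Golgi, in human cells, as substrates for sugar chains. Its signal was 5138, 4933 and 4953 in left epithelium and 5086, 4949 and 5166 in right epithelium. In mesenchyme it was 3606, 2936 and 2771 on the left and 3153, 2826 and 2880.2 on the right. The epithelial arrays kept within a narrow range above all mesenchymal ones, and the sides overlapped in both layers. The difference was 0.74 ± 0.08 log2, 1.67-fold (adjusted p = 1.4e-05). The gene has 6 probe sets, and all 4 others that were tested were higher in epithelium by 0.74 to 0.88 log2, 3 of them past the threshold. Of the 22 tested carriers of nucleosides and nucleotide sugars it was the only one that passed any test, and the class median was -0.09 log2.

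SLC16A1, the proton-coupled carrier of lactate and pyruvate (MCT1), was higher in epithelium by a smaller step. The signal was 2392, 2503 and 2420.3 in left and 2486, 2791 and 3287 in right epithelium, against 1866, 1878 and 1696 in left and 1622, 2075 and 1918 in right mesenchyme. The layers did not overlap and the sides did. The difference of 0.51 ± 0.10 log2 (1.43-fold) passed (adjusted p = 0.004), but not without experiment 2 (adjusted p = 0.053) or over the mean of its 4 probe sets (0.40 log2, adjusted p = 0.22). All 3 other probe sets were higher in epithelium, by 0.10 to 0.51 log2, and none passed. Of the chaperones that bring such carriers to the membrane, basigin (BSG) passed no test, with a layer difference of 0.07 ± 0.05 log2 (adjusted p = 0.53). Embigin (EMB) fell on the left in both layers, from 1874 ± 136 in right to 1116 ± 27.8 in left mesenchyme (-0.74 ± 0.16 log2, adjusted p = 0.020) and from 1995 ± 268 in right to 947 ± 144 in left epithelium (-1.06 ± 0.16, adjusted p = 8.8e-04). The other lactate carriers of the tested set, chosen after their values were seen, passed no test: SLC16A3 differed between layers by 0.26 ± 0.16 log2 and SLC16A7 by -0.69 ± 0.24 (adjusted p = 0.47 and 0.13). Without array 2 of left epithelium SLC16A7 passed between the layers (-0.90 log2, adjusted p = 0.033).

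**Figure D2:**
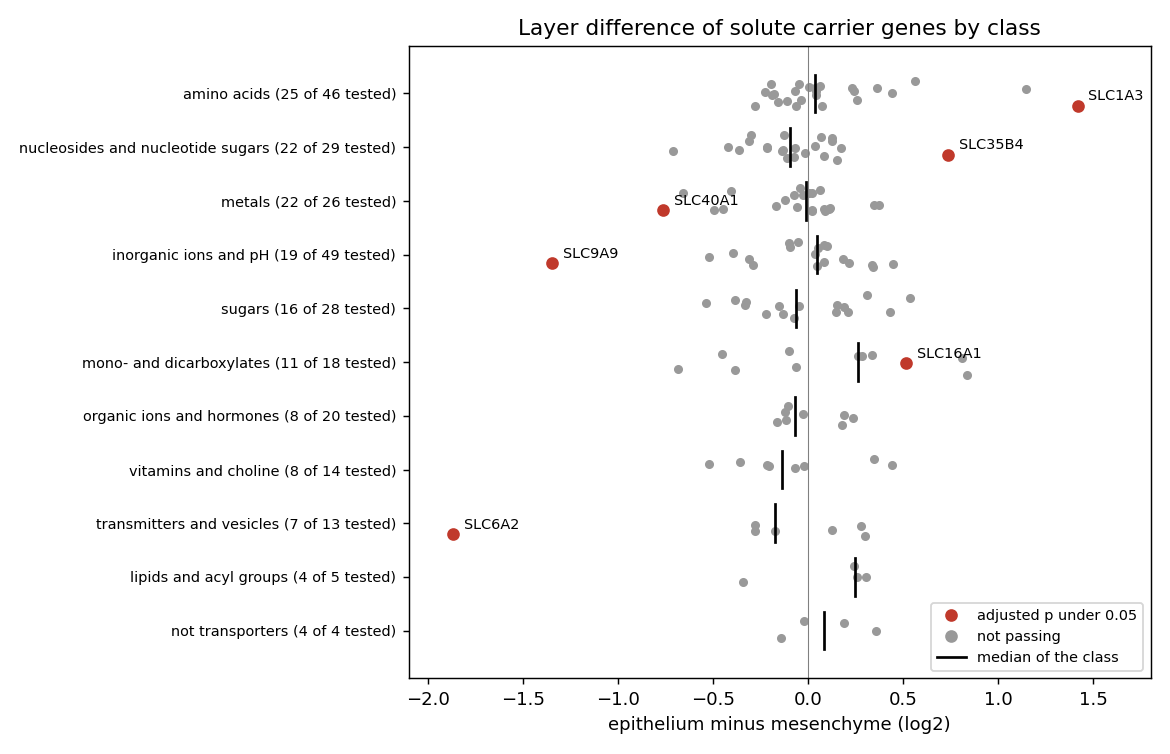
Difference of epithelium from mesenchyme (horizontal axis, log2) of the 146 tested genes, by substrate class (rows), with points spread vertically for legibility. Red points passed and black bars are class medians; the passing genes lie at the far ends of their classes except SLC16A1, and class medians stay between -0.17 and 0.26.

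Left and right mesenchyme were compared next, since the mesentery tilts the gut to the left at this stage and the sides are known to differ. Only the glutamate transporter SLC1A3 and the ascorbate carrier SLC23A2 passed, 1.37% of the tested carriers against 1.99% of all probe sets. Arrays did not overlap between sides for 28 genes, 19.2% against 17.7% of all probe sets. At an unadjusted p of 0.05 there were 21 carriers, 14.4% against 12.3%.

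SLC1A3, the sodium-coupled glutamate and aspartate transporter known from glia, was lowest in left mesenchyme. Its signal there was 184, 259 and 174, against 486, 550.5 and 479 in right mesenchyme. In epithelium it was 846, 990.2 and 827 on the left and 902, 1037 and 738 on the right. The order was epithelium, then right mesenchyme, then left mesenchyme, with no overlap between these steps and full overlap of the epithelia. Left mesenchyme was 2.38-fold below right (-1.25 ± 0.20 log2, adjusted p = 0.002), and the epithelia differed by 0.00 ± 0.20 log2. The test of the difference between those changes (1.25 ± 0.28) did not pass (adjusted p = 0.22). The layers differed by 1.42 ± 0.14 log2, 2.67-fold (adjusted p = 7.5e-06). The second probe set gave -0.77 log2 between the mesenchymes, which did not pass, and 1.14 between the layers, which did. The left-right call was lost without experiment 1 (-1.21 log2, adjusted p = 0.054). The summed signal of the coelomic epithelium markers was 37967 to 39790 in left and 44424 to 46944 in right mesenchyme, and 4 of 13 tested fell in left mesenchyme (KRT7, ALDH1A2, LHX9 and GATA4), KRT7 by 0.59 log2. The other way, 5 of the 13 (EPCAM, BNC1, CDH1, CLDN1 and PODXL) had higher values in left mesenchyme, none passing, and GATA4 differed by only 0.03 log2 between the layers. The summed endothelial markers went the other way, 13592 to 15007 in left and 6755 to 7405 in right mesenchyme, with 5 of 19 higher on the left. Against the sum, FLT1, TEK, ESAM and ETS1 changed by -0.40, -0.43, -0.59 and -0.07 log2, none passing. For FLT1 and TEK the arrays of the sides did not overlap. The part of the coelomic and endothelial markers in the SLC1A3 difference was not tested.

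SLC23A2, the sodium-coupled vitamin C carrier (SVCT2), was higher on the left. The signal was 4024, 4499 and 3999 in left mesenchyme and 2768, 2713 and 2710.3 in right mesenchyme. It was 2944, 3518 and 3501 in left epithelium and 2645, 2365 and 2769 in right epithelium. Left lay above right without overlap in both layers, and left mesenchyme above left epithelium, while the right compartments overlapped. The mesenchymal difference was 0.61 ± 0.12 log2, 1.52-fold (adjusted p = 0.010), and the epithelial one, 0.35 ± 0.12, did not pass (adjusted p = 0.17). That the layers differ in this change was not shown (interaction -0.25 ± 0.17, adjusted p = 0.93). All 4 other probe sets were higher in left mesenchyme, by 0.35 to 0.90 log2, and 1 passed. The mesenchymal call was lost in 9 of 25 alternatives. Its adjusted p was 0.058 to 0.10 when array 1 or 2 of left or array 2 or 3 of right mesenchyme was left out. It was 0.074, 0.24 and 0.068 without experiment 1, 2 or 3. Without the intensity trend of the variances it was 0.14, and over the mean of its probe sets 0.17.

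Left and right epithelium differed in the sodium-proton exchanger SLC9A9 and the phosphate carrier SLC34A2, both higher on the left, and in SLC45A4, lower on the left. These 3 are 2.05% of the tested carriers, against 2.47% of all probe sets. Arrays of the sides did not overlap for 27 carriers, 18.5% against 15.7%.

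SLC9A9 (NHE9) sets the pH of recycling endosomes. In right epithelium its signal was 48.8, 127 and 150.3, the lowest of all compartments, against 467, 654 and 429 in left epithelium. In mesenchyme it was 712, 894 and 846 on the left and 377, 501 and 508 on the right. Left exceeded right in every experiment of both layers with no overlap, and left epithelium overlapped right mesenchyme. The epithelial difference was 2.18 ± 0.27 log2, 4.54-fold (adjusted p = 1.2e-04), and the mesenchymal one of 0.81 ± 0.27 did not pass (adjusted p = 0.17). The interaction of 1.37 ± 0.38 did not pass either (adjusted p = 0.45). Epithelium was 2.55-fold below mesenchyme over both sides (-1.35 ± 0.19 log2, adjusted p = 2.7e-04). A second tested probe set gave 1.81 log2 between the epithelia and -1.33 between the layers, both past the threshold. With the mean over its probe sets the epithelial difference was 1.28 log2 (adjusted p = 0.014). Globins fell on the left in the same comparison: 5 of the 9 red blood cell genes passed, HBA1 by 1.43 log2, with summed signals of 21223 to 66028 in left and 70955 to 74291 in right epithelium. The arrays of the sides overlapped for HBA1 (2046 ± 1755 in left and 4439 ± 753 in right epithelium, SD, n = 3). They did not overlap for HBAD, HBZ, HBBR and HBE. The part of these genes in the epithelial differences was not tested.

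SLC34A2, a sodium-coupled phosphate carrier of epithelia, varied among experiments. The signal was 298, 277 and 429 in left epithelium and 251, 57.8 and 74.0 in right epithelium. It was 326, 114 and 142 in left mesenchyme and 152, 134 and 174 in right mesenchyme. Experiment 1 was high in left mesenchyme and right epithelium, and left epithelium lay above right without overlap, by only a little in that experiment. The difference of 1.51 ± 0.38 log2 (2.85-fold) passed narrowly (adjusted p = 0.045) and was lost in 19 of 25 alternatives, with an adjusted p of 0.077 without the experiment as a block and 0.20 to 0.25 when array 2 or 3 of either epithelium was left out. It was 0.051 to 0.060 without any 1 array of left mesenchyme or array 2 or 3 of right mesenchyme. The second probe set gave 0.21 log2, and the mean over the probe sets 0.86 (adjusted p = 0.26).

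SLC45A4, assigned in mouse to proton-coupled sugar transport, was lower on the left by a small step. The signal was 6728, 8405 and 7465 in left epithelium and 10082, 11133 and 9750.1 in right epithelium. It was 8869, 7964 and 9011 in left and 10429, 10501 and 9144 in right mesenchyme. Left lay below right without overlap in both layers, and the layers overlapped on each side. The epithelial difference was -0.46 ± 0.10 log2, 1.37-fold (adjusted p = 0.017), and the mesenchymal -0.22 ± 0.10 did not pass (adjusted p = 0.37). All 5 other tested probe sets were lower in left epithelium, from -0.59 to -0.40 log2, and 2 of them passed. Of its other probe sets 1 also fell on the left in mesenchyme (-0.56 log2, adjusted p = 0.048). The epithelial call was lost in 10 of 25 alternatives. Its adjusted p was 0.051 to 0.10 when array 1 or 3 of left or array 1 or 2 of right epithelium was left out. It was 0.16, 0.12 and 0.063 without experiment 1, 2 or 3, and 0.26 without the intensity trend of the variances. With only the epithelial arrays it was 0.062, and over the mean of its probe sets 0.078.

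**Figure D3:**
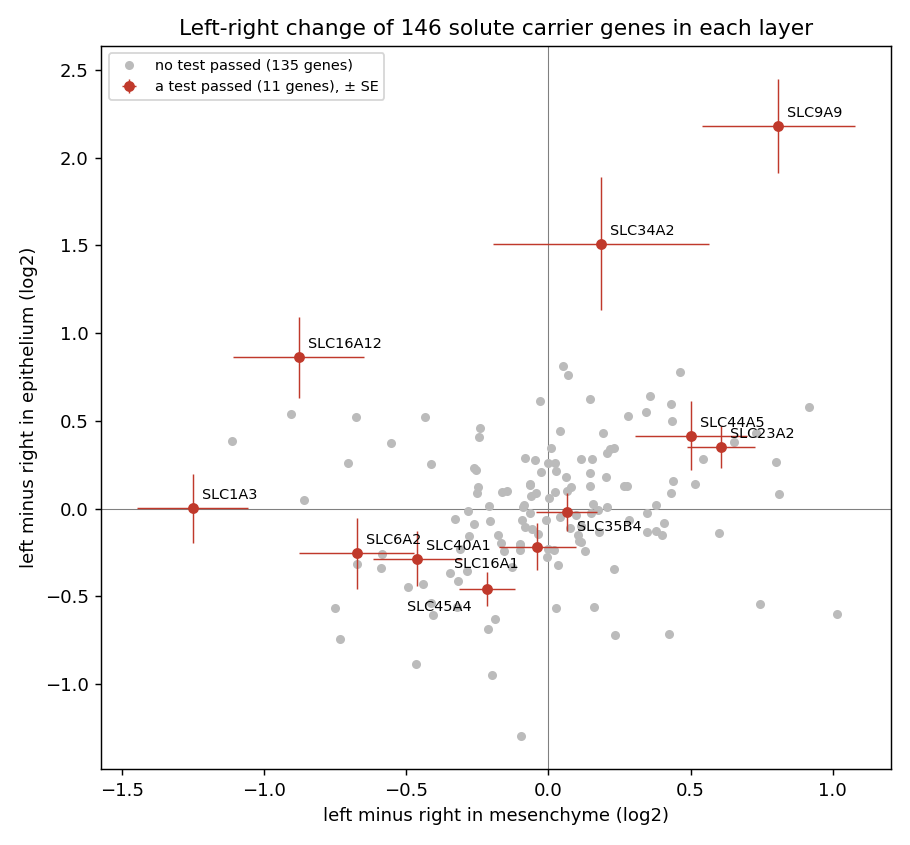
Left minus right in mesenchyme (horizontal axis, log2) against left minus right in epithelium (vertical axis, log2) for the 146 tested genes. Red points with bars of 1 SE passed a test; SLC9A9 and SLC34A2 lie high, SLC1A3 far to the left at 0.00 in epithelium, and SLC16A12 at -0.88 and 0.86 in the quadrant of opposite signs.

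Whether the left-right change depends on the layer was tested as an interaction. By limma none of the 146 carriers passed (0 genes, with 0.026% of all probe sets), and 13 had an unadjusted p under 0.05 (8.90% against 5.84%). The smallest p belonged to SLC16A12, a monocarboxylate carrier relative that moves creatine in human cells. Its signal was 634, 691 and 1066 in left and 403, 487 and 377 in right epithelium, so that left lay above right without overlap. In mesenchyme it was 501, 496 and 769.5 on the left and 701, 1285 and 1369.5 on the right, lower on the left in every experiment though the groups overlapped. The changes were 0.86 ± 0.23 log2 in epithelium and -0.88 ± 0.23 in mesenchyme, neither passing (adjusted p = 0.062 and 0.063), though the mesenchymal one passed without array 3 of right epithelium (adjusted p = 0.024). The interaction was 1.74 ± 0.33 log2 (unadjusted p = 6.0e-05, adjusted p = 0.086). The gene passed the test over the 4 compartments (adjusted p = 0.006), though not without experiment 2 or 3 (adjusted p = 0.081 and 0.083). Nor did it pass without the intensity trend of the variances (adjusted p = 0.054) or over the mean of its probe sets (adjusted p = 0.085).

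SLC44A5, a relative of the choline carriers, passed only the test over the 4 compartments (adjusted p = 0.045). The signal was 1099, 1838 and 1734 in epithelium and 1078, 1192 and 1186 in mesenchyme on the left. On the right it was 1351, 1099.7 and 984 in epithelium and 667, 996 and 794 in mesenchyme. Left epithelium was highest and right mesenchyme lowest by their means, and all neighbours in that order overlapped. The call was lost in 16 of 24 alternatives, among them leaving out any 1 mesenchymal array or array 2 or 3 of left epithelium (adjusted p of 0.065 to 0.19).

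By substrate, carriers of amino acids (25 of 46 tested) included SLC1A3 as the only gene past a threshold. The glutamine carrier SLC38A1 had 5297 ± 201 in epithelium and 5588 ± 377 in mesenchyme on the left, and 4880.4 ± 774 and 5057 ± 423 on the right (SD, n = 3), with layer and side differences of at most 0.14 log2 in size. The large neutral amino acid carrier SLC7A5, named after its values were seen as a common marker of growing tissue, averaged 888, 818, 719 and 844 in that order and passed no test. Among sugar carriers (16 of 28 tested) SLC45A4 alone passed. The glucose carrier SLC2A1, also named after its values were seen, averaged 1185, 1237, 1396 and 1108 in the same order, with a layer difference of 0.15 ± 0.14 log2 (95% interval -0.14 to 0.44). Within epithelium its left-right difference was -0.24 ± 0.20 (-0.65 to 0.17). SLC2A12, another hexose carrier, was 89.7, 59.5 and 81.6 in left and 228, 292 and 138 in right epithelium, without overlap, and its difference of -1.30 ± 0.35 log2 missed the threshold (adjusted p = 0.061), and passed without array 3 of both right compartments (adjusted p = 0.025). It too was named after its values were seen.

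Of the metal carriers (22 of 26 tested) SLC40A1 passed. The zinc carrier SLC30A5 of the secretory pathway had 6014 ± 706 in epithelium and 5161 ± 867 in mesenchyme on the left, and 5039 ± 737 and 5122 ± 1089 on the right. SLC30A1, which exports zinc over the plasma membrane, differed between layers by 0.11 ± 0.09 log2 (95% interval -0.08 to 0.31). The zinc carrier SLC39A9 differed by -0.06 ± 0.08 (-0.22 to 0.11) and the copper uptake carrier SLC31A1 by 0.06 ± 0.09 (-0.12 to 0.24). These intervals all lie within 1 log2, that is within 2-fold either way. SLC35F1, a relative of the nucleotide sugar carriers, differed by -0.08 ± 0.09 (-0.27 to 0.12). SLC33A1, the acetyl-CoA carrier of the endoplasmic reticulum, had the largest F of the lipid and acyl group carriers (4 of 5 tested) and just missed the threshold (adjusted p = 0.055), with a layer difference of 0.30 ± 0.09. It passed without array 3 of left mesenchyme (adjusted p = 0.040). Among organic ion and hormone carriers (8 of 20 tested) the largest F was that of the carnitine carrier SLC22A16 (adjusted p = 0.32). Of 4 genes that carry the SLC name without being carriers, it was that of the scaffold protein SLC9A3R1 (adjusted p = 0.25).

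The 3 carriers whose means over the 4 compartments were most like those of SLC6A2 were the zinc carrier SLC30A2 (Pearson r = 0.994), the sugar phosphate carrier SLC37A2 (0.993) and the phosphate carrier SLC20A2 (0.987). Each r rests on 4 means of the same arrays, and none of the 3 genes passed a test, with layer differences of -0.50 ± 0.34, -0.33 ± 0.19 and -0.40 ± 0.21 log2.

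Genes listed as partners of the carriers, or as pumps, channels and carriers outside the set, gave calls as well. The list was chosen with earlier results of these data known, so its counts are no evidence of an excess over the whole array. Of 34 found on the array from this list of 39 genes 19 were tested. In mesenchyme 1 rose on the left and 2 fell, in epithelium 1 rose and 2 fell, and between layers 2 were lower in epithelium. Over all probe sets 1.99%, 2.47% and 4.79% passed in these 3 comparisons. The medians of the list were -0.02, 0.02 and -0.12 log2, against 0.00, 0.01 and -0.01 over all probe sets. The water channel AQP1 averaged 1846 ± 168 in left mesenchyme, 314 ± 86.7 in right mesenchyme, 149 ± 35.9 in left epithelium and 88.8 ± 32.4 in right epithelium. It was 5.75-fold higher in left than right mesenchyme (2.52 ± 0.30 log2, adjusted p = 8.5e-05), together with the sum of the endothelial markers given above, though not with each marker. The part of these markers in it was not tested. FXYD6, a regulator of the sodium pump, fell on the left like embigin, by 0.98 log2 in mesenchyme (adjusted p = 0.025) and by 0.92 in epithelium (adjusted p = 0.031). Carbonic anhydrase 9 (CA9) was higher in left than right epithelium, 788 ± 85.0 against 352 ± 78.5 (1.14 ± 0.20 log2, adjusted p = 0.003). The organic anion carrier SLCO2B1, whose symbol lies outside the SLC pattern, was lower in epithelium by 1.07 log2 (adjusted p = 0.026).

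Over the tested carriers the sizes of change followed those of the whole array. The median size was 0.21 log2 for both the carriers and all probe sets between the mesenchymes, 0.24 against 0.22 between the epithelia, and 0.19 against 0.17 between the layers. The 95% interval lay within 2-fold either way for 127 of the 146 carriers between the layers (87.0%, against 85.7% of all probe sets). Between the mesenchymes it did for 95 (65.1% against 64.7%) and between the epithelia for 96 (65.8% against 63.7%), and the intervals of the others reached past 2-fold.

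**Figure D4:**
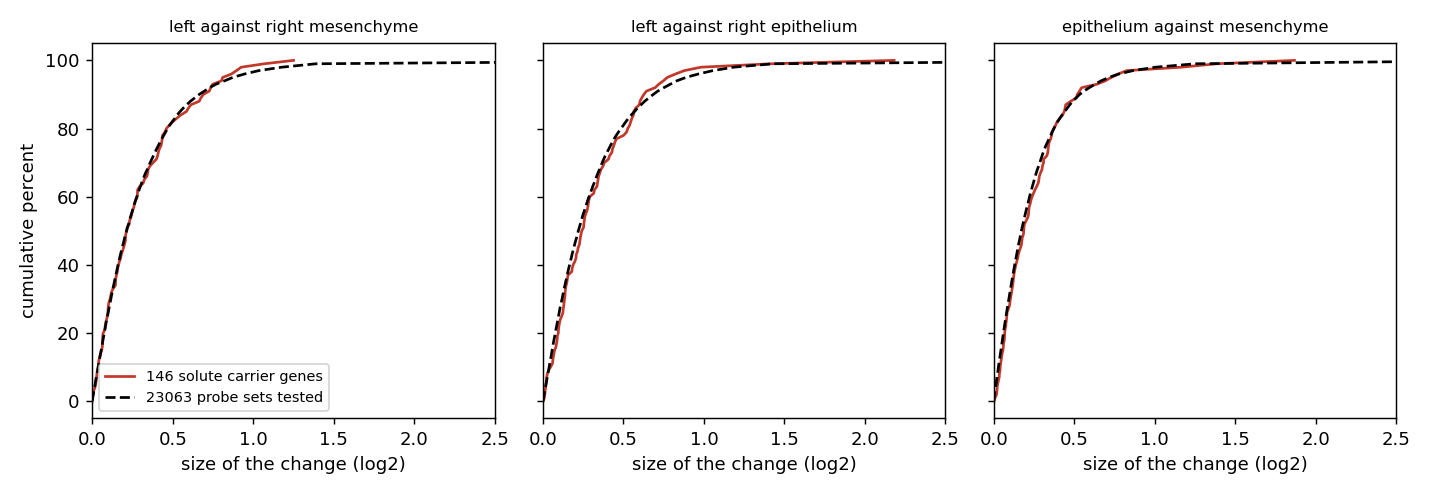
Cumulative percent (vertical axis) of the size of the change (horizontal axis, log2, either direction) for 146 solute carrier genes (red) and all 23063 probe sets tested (dashed), in 3 comparisons. The curves lie close together, with medians of 0.21 and 0.21, 0.24 and 0.22, and 0.19 and 0.17.

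Among the 106 untested genes, 4 were above the floor on all 3 arrays of a compartment and on none of another: SLC12A8, SLC4A11, SLC6A12 and SLC6A20. The share of all untested probe sets with this pattern was not computed, so the count cannot be set against the whole array. SLC6A12, a carrier of betaine and GABA, had 55.1, 37.9 and 66 in mesenchyme and 47.7, 12.4 and 17.8 in epithelium on the right. On the left it had 21.8, 4.25 and 2.05 in mesenchyme and 3.81, 1.35 and 4.29 in epithelium. With no filter on low values it passed the test over the 4 compartments (adjusted p = 0.019). That test used the same values by which the gene was picked here, most of those on the left under the floor, so it is no separate support. The choice of probe set mattered for a further 2 genes: of 134 other tested probe sets, 1 of SLC38A6 (-0.67 log2, adjusted p = 0.045) and 1 of SLC39A8 (0.88 log2, adjusted p = 0.046) passed between the layers although the brightest probe set of the gene did not.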

How the data were processed

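The deposited table, which the authors made with MAS5 in GCOS per the submitters' processing notes (no versions given), holds linear 1-colour intensity values of 38535 probe sets on 12 arrays. RNA was amplified, and 5 ng labelled, per the labels' protocols. Trimming 2% at each end left every array with a mean of 500.11 to 500.12. The number of arrays limits the precision. Gene names came from the 2016 platform annotation; 248 of 252 Entrez identifiers stood in the RefSeq table, 0 symbols changed, and 4 probe sets with several symbols were left out.

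Differences were computed on log2(signal + 16), so that folds of dim genes are understated. A filter at the 40th percentile of the mean (signal 47.4) kept 23063 of 38439 non-control probe sets. The model in limma 3.58.1 (R 4.3.3) held compartment and experiment (as a block) over all arrays and moderated variances by intensity (residual degrees of freedom 6, prior 10.6). Tests were two-sided. Replicate numbers were taken as experiments, because per the series text every experiment supplied all compartments; deviations of same-numbered arrays correlated at -0.063 to 0.105 (18 pairs, mean 0.021) and those of differently numbered arrays at -0.073 to 0.057 (36 pairs, mean -0.010), so the pairing rests on the series text. The test was checked on simulated data for left against right mesenchyme. There 38% of 100 probe sets changed by 1 log2 passed, and 82% of 100 changed by 2 log2, with 4 false calls. In the simulated data many 2-fold changes between the mesenchymes were thus missed. Those data held no experiment effect and fewer changed probe sets than the 460 that passed in the real comparison. Their spread was the residual SD of each probe set. The 38% and 82% are therefore not the power of the real test, and the other comparisons were not simulated.

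Members, classes and lists were chosen with earlier results of these data known. Genes were named if they passed a test, were among the 10 with the highest signal, had the largest F of their class, or stood in the lists of partners and markers. Others were named for a reason given where they appear, some of them after their values were seen. Alternatives were no block, other pseudocounts, filter, normalization, trend, weights, probe sets and arrays left out.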

Additional observations from a re-analysis of the deposited data

Results flagged for a closer look

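SLC16A12 was marked because every experiment moved one way in epithelium and the other way in mesenchyme. The left-right change in log2 was 0.64, 0.49 and 1.46 in epithelium and -0.47, -1.34 and -0.82 in mesenchyme. The difference between the changes was 1.74 log2, and its limma test missed the threshold (adjusted p = 0.086, from 0.076 to 0.73 over 24 alternatives, the highest with the mean over its probe sets, where the difference was 0.90 log2). In all, 5 of the 146 tested carriers had opposite directions in all experiments (SLC13A5, SLC16A12, SLC2A14, SLC34A1 and SLC51B), 3.42% against 2.64% of all probe sets.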

How the results depend on the processing

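The 11 differences past the threshold between sides or layers and the interaction of SLC16A12 kept their direction in every alternative run. The layer differences of SLC6A2, SLC40A1, SLC9A9, SLC1A3 and SLC35B4 and the left-right difference of SLC9A9 in epithelium passed in every alternative. Leaving out 1 array or 1 experiment, the number of carriers past the threshold ranged from 0 to 3 between the mesenchymes (2 with all arrays), from 1 to 3 between the epithelia (3), from 6 to 8 between the layers (6), from 5 to 12 over the 4 compartments (10), and was 0 for the interaction. Without the intensity trend 1, 1 and 5 passed between the mesenchymes, between the epithelia and over the compartments, and with the mean over a gene's probe sets 1, 1 and 6. With only the arrays compared 4 and 1 passed between the mesenchymes and the epithelia, and with array weights 5 between the mesenchymes. SLC6A2 and SLC16A12 passed between the mesenchymes under both (adjusted p = 0.042 and 0.032 with weights, 0.029 and 0.049 with only the arrays compared). Without the replicate block the counts were 2, 2, 7, 10 and 0, SLC34A2 was lost and SLC38A7 gained between the layers (adjusted p = 0.048). The causes were not tested. The share of all probe sets passing under each alternative was not computed, so these counts of carriers cannot be set against the whole array. Dim genes, 3 arrays a group and 11 carriers under the floor limit what could be seen.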

Other observations

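Of the 17 tested genes of glycolysis and hypoxia, which supply or follow the lactate and glucose carriers, phosphofructokinase PFKP (0.68 ± 0.15 log2, adjusted p = 0.016) and CA9 were higher in left than right epithelium, and 0 of the 17 passed between the mesenchymes or between the layers. The lactate dehydrogenases had layer differences of -0.28 ± 0.11 log2 (LDHA) and -0.00 ± 0.06 (LDHB). Among markers of tissues near the mesentery, 0 of 5 genes of liver and yolk sac passed a left-right or layer test, 1 of 4 genes of the endoderm fell in left epithelium, and of 7 genes of gonad and nephros 1 fell on the left in each layer and 2 were higher in epithelium.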
